A study of Mus musculus with 18 samples.

Results

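The 37 genes described here encode transcription factors that lay out the body plan and the organs of the embryo. They are the 9 genes of the Hoxc cluster, the 9 genes of the Hoxd cluster, and 19 further regulators, namely Pax2, Pax3, Pax6, Pax7, Pax9, Six2, Lhx2, Tbx3, Tbx5, Nkx2-2, Nkx2-5, Otx1, Otx2, Gata4, Gata6, Foxa2, Sox1, Sox9 and Wt1. Their members in the data were every listed region that overlapped a gene body extended by 5 kb on each side, with gene bodies from GENCODE release M21 on mm10. This gave 344 of 411770 listed regions in CD11b+ cells and 483 of 553467 in CD4+ cells, and each of the 37 genes held at least 1 region in both. Neighbouring Hoxc and Hoxd genes overlap or lie close together, so 1 region could belong to several genes. It was then counted once in totals over regions, but in the values of every gene whose window it overlapped.

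The study compared DNA methylation by whole-genome bisulfite sequencing in CD11b+ (myeloid) and CD4+ (T helper) cells taken from the spleen on magnetic columns, of Dnmt3a+/+ and Dnmt3a R878H/+ mice. R878H is the mouse counterpart of the most common human DNMT3A hotspot change in clonal hematopoiesis. In the mutant mice a floxed R878H allele was switched on by Vav1-iCre, which is active in blood-forming cells. Both groups keep at least 1 normal Dnmt3a allele, but the paper describes the loss of methylation activity in heterozygotes as dominant negative. The study used Cre-negative carriers of the floxed allele as well as Cre-positive Dnmt3a+/+ mice as controls in its transplantations. The study describes sex- and age-matched young adult mice. The labels list 18 entries in 4 groups, with 4 mice in each group and 6 entries for the 4 mice of the CD11b+ mutant group. They also carry S numbers, in a lower and a higher series, whose meaning is not stated. All CD4+ mutant entries but few CD4+ Dnmt3a+/+ entries are in the higher series. Among CD11b+ entries only mutant ones are. Any effect of the series cannot be told apart from genotype in the group means. The values used here are 1 mean per group and region, so the spread between mice and the number of reads behind a value are unknown, and no difference below carries an error or a test over mice. The columns do not name the groups. The first group mean was read as Dnmt3a+/+ because the study describes lower methylation in Dnmt3a R878H/+ cells, and every direction given here rests on that reading.

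DNMT3A adds methyl groups to cytosines of CpG dinucleotides that were not methylated before. Genes for developmental transcription factors often lie in long stretches rich in CpGs that carry little methylation in most adult tissues, where Polycomb complexes hold the genes silent. Hox genes are lined up along the chromosome in the order in which they act along the body axis, from the anterior group that ends in low numbers to the posterior group that ends in high numbers.

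Regions among those with the largest differences in each gene group are shown first, chosen after their values were seen. At Hoxd the region with the largest loss overlaps an untranslated region, so the region with the next largest loss is shown in its place. All are mm10 plus-strand sequence from the RefSeq genome, 5′ to 3′, in lower case with each CpG in capitals, and regions over 300 bases are shown by their middle 300 bases. The Hoxc4 region is chr15:103038942-103039233, the region in the overlapping bodies of Hoxc5 and Hoxc6 is chr15:102999943-103000157, the Hoxd3 and Hoxd4 stretch is chr2:74724734-74725033, the Pax7 regions are chr4:139758786-139758886 and, in part, chr4:139817737-139818036, and the Tbx5 region is chr5:119867098-119867285.
Hoxc4 downstream region: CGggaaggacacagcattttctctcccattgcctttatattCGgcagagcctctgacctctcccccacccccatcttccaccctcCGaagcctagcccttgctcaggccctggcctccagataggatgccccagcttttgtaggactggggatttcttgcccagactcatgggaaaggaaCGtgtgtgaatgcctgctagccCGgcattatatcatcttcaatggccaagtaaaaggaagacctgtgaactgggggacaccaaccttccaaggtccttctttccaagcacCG
Hoxc5 and Hoxc6 region: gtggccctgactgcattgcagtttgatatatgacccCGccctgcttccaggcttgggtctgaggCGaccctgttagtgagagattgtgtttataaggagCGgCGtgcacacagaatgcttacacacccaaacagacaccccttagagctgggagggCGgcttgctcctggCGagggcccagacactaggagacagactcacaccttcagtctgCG
Hoxd3 and Hoxd4 intron: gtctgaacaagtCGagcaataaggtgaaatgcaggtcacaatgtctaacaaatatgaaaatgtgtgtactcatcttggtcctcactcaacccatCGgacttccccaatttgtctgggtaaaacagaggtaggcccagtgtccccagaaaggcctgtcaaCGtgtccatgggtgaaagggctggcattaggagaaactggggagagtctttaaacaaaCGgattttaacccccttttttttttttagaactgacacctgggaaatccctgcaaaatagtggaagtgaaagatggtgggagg
Pax7 intron, CD11b+ region: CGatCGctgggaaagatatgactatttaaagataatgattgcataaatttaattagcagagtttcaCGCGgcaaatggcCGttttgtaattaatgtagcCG
Pax7 intron, CD4+ region: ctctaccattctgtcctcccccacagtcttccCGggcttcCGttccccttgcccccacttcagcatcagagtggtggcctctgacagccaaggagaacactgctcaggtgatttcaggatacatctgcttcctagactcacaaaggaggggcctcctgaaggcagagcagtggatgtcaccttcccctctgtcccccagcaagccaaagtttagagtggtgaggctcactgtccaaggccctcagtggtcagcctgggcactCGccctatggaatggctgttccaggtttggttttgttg
Tbx5 intron: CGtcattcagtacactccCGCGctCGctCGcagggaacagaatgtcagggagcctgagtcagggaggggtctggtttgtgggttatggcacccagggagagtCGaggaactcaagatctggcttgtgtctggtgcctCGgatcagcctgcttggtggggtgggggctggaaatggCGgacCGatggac
The short Pax7 run holds 6 CpGs in 101 bases, and the Tbx5 run holds 9 in 188 bases, while the Hoxd3 and Hoxd4 stretch holds 4 in 300 bases.

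Listed regions at the 37 genes had far less methylation than listed regions elsewhere. In CD11b+ cells the median level over the 344 regions was 36.83% in Dnmt3a+/+ and 25.41% in Dnmt3a R878H/+, against 88.92% and 82.03% over all listed regions. In CD4+ cells it was 27.15% and 15.75% over the 483 regions, against 89.9% and 82.39%. A Dnmt3a+/+ level under 20% was found in 37.21% of the member regions in CD11b+ and in 42.86% in CD4+ cells, against 3.105% and 2.333% of all listed regions. The levels reached both ends of the scale, with an interquartile range from 12.91% to 79.18% in CD11b+ cells and from 11.73% to 77.97% in CD4+ cells.

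The mutant group mean was the lower one in 321 of 344 member regions (93.31%) in CD11b+ and in 442 of 483 (91.51%) in CD4+ cells. Over all listed regions the same share was 93.44% and 95.47%, so the direction did not set the 37 genes apart. The median loss, Dnmt3a+/+ minus Dnmt3a R878H/+, was 7.4 percentage points in CD11b+ and 7.054 in CD4+ cells, beside 6.546 and 6.848 over all listed regions. A loss above 10 points was found in 91 member regions (26.5%) and 136 (28.2%), beside 27.3% and 27.6% of all. The tables list only stretches that the region caller marked out when it compared the groups, and they hold 16.7% of the 21523 CpG dinucleotides of the gene windows in CD11b+ and 22.5% in CD4+ cells, so these shares describe listed stretches and not whole genes.

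No member region met the study's criteria for a differentially methylated region (DMR), which are more than 10 CpGs, a difference above 20 points and a q-value below 0.05. The count was 0 of 159 regions with more than 10 CpG cytosines in CD11b+ cells, where 1.38% of all such regions were called lower and 0.0302% higher in the mutant. In CD4+ cells it was 0 of 215, where 1.49% were called lower and 0.00121% higher. The q-value was 1 at every member region. It was below 1 at 1.22% and 1.42% of all listed regions. The q-value comes from the caller's comparison of the CpG values of a region and is a calling criterion, not a test over mice. With the q-value set aside, 2 of 159 member regions (1.26%) in CD11b+ cells lost more than 20 points, against 7.75% of all, and 13 of 215 (6.05%) in CD4+ cells did, against 6.89% of all. A region under 20% in Dnmt3a+/+ cannot lose more than 20 points. Among member regions of any size, 37.21% in CD11b+ and 42.86% in CD4+ cells were under 20%, against 3.105% and 2.333% of all. Such a region could thus not be called lower, while the others could. Among all CD11b+ regions with more than 10 CpG cytosines, 622 of 11302 were called lower at 40% to 60%. It was 1127 of 27651 at 60% to 80% and 507 of 123975 above 80%. Members held 16, 23 and 41 such regions in these bands. In CD4+ cells the counts were 508 of 11677, 1707 of 35785 and 1358 of 190306, and members held 21, 28 and 46. Whether the starting level accounts for the absence of calls was not tested, and none of these shares was tested against the others.

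**Figure D1:**
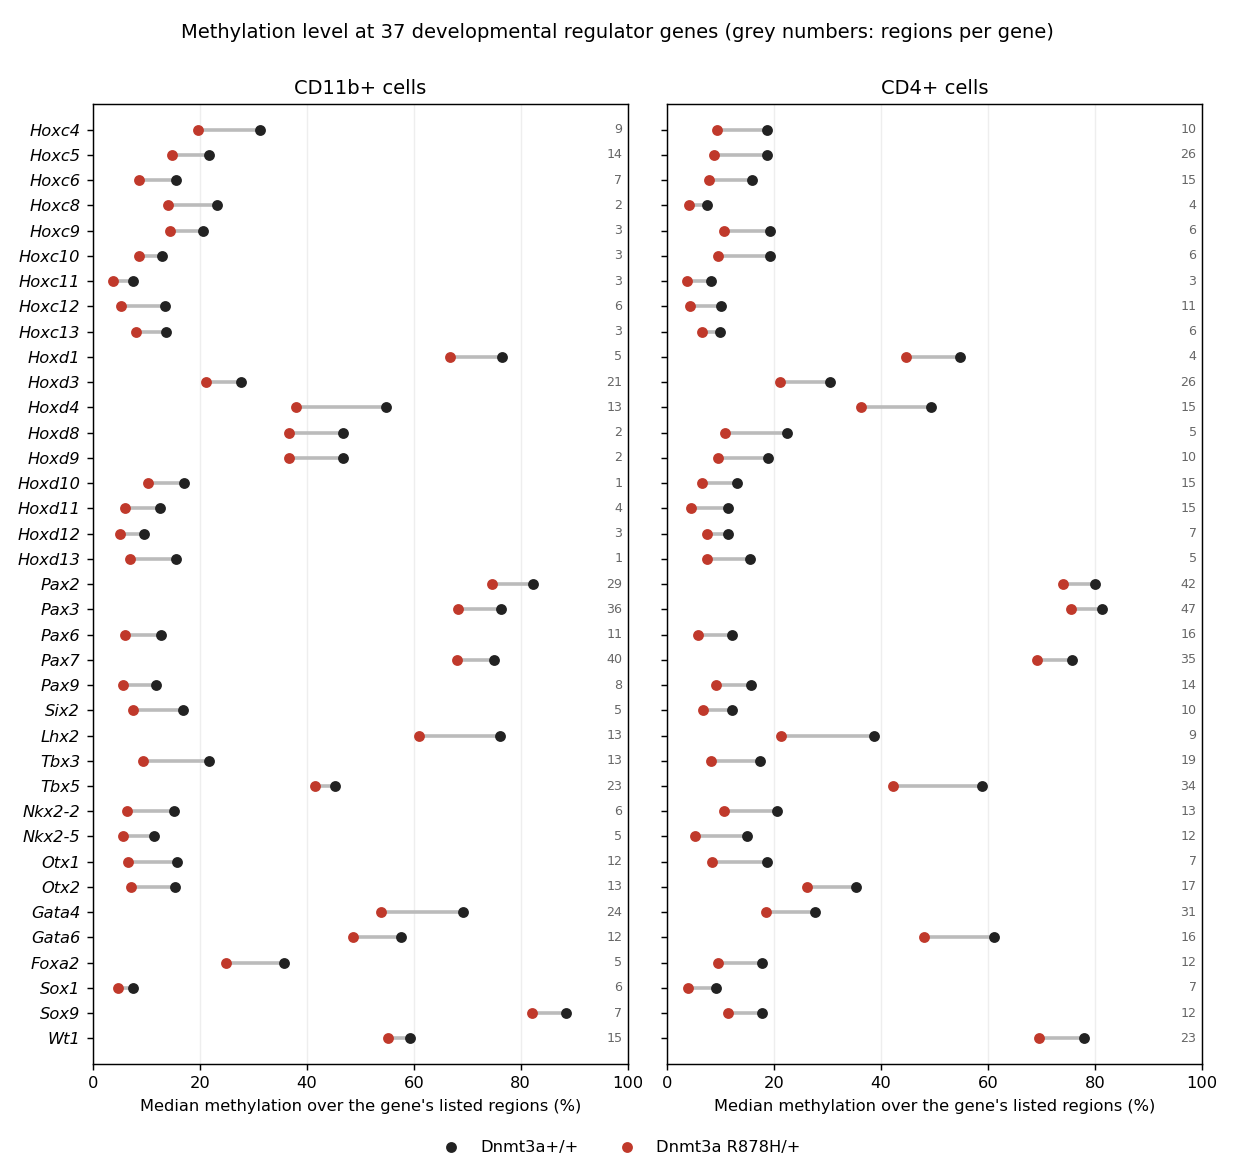
Median methylation in percent over the listed regions of each of the 37 genes in Dnmt3a+/+ (black) and Dnmt3a R878H/+ (red), in CD11b+ cells (left) and CD4+ cells (right), with the number of regions in grey. The mutant median lies to the left of the Dnmt3a+/+ median at all 37 genes in both panels.

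Each of the 37 genes had a lower median in Dnmt3a R878H/+ than in Dnmt3a+/+, in both cell types. Of all listed regions 93.44% and 95.47% were lower, so this does not set the genes apart, and neighbouring Hox genes share regions. The median loss per gene ran from 3.654 points at Hoxc11, a posterior Hox gene, to 10.93 at Foxa2, a regulator of endoderm, in CD11b+ cells. In CD4+ cells it ran from 1.9 points at Hoxc13 to 11.14 at Otx1, a regulator of the forebrain. Some of these medians rest on few regions, since Hoxd10 and Hoxd13 held 1 region each in CD11b+ cells. The genes differed more in their level than in their loss, from a Dnmt3a+/+ median of 7.404% at Hoxc11 to 88.54% at Sox9, a regulator of cartilage, in CD11b+ cells. The Sox9 median was 17.73% in CD4+ cells, over 12 regions against 7, so a gene median depends on which stretches are listed.

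**Figure D2:**
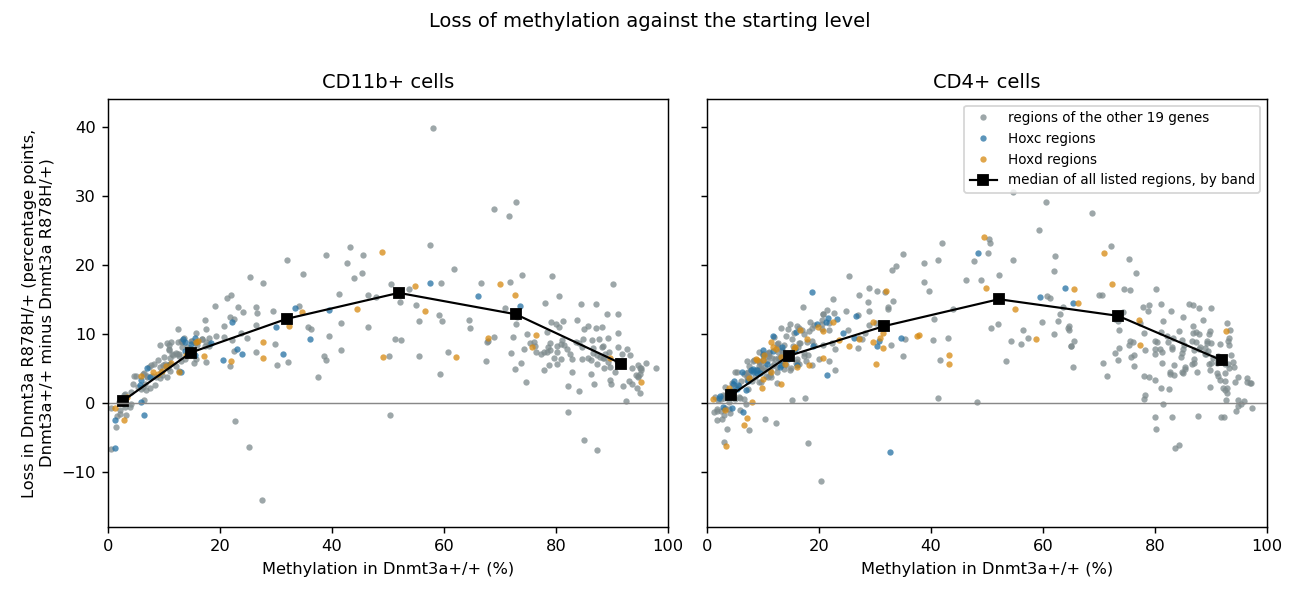
Loss in percentage points (Dnmt3a+/+ minus Dnmt3a R878H/+) against the Dnmt3a+/+ level in percent for every member region, coloured by gene group, with black squares for the median of all listed regions in 6 bands of level. Points follow the arch of the squares, and few lie below 0.

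The loss followed the starting level. Where Dnmt3a+/+ cells had 40% to 60% methylation, the median loss of member regions was 14.62 points in CD11b+ and 13.57 in CD4+ cells, beside 15.9 and 14.98 for all listed regions in that band. It was 9.417 and 11.69 points between 60% and 80%, beside 12.8 and 12.57, and 6.5 and 5.9 points above 80%, beside 5.65 and 6.106. Because loss and starting level share the Dnmt3a+/+ value, and a low level leaves little to lose, these are descriptions within bands. In the band from 10% to 20%, the mutant mean was lower in 68 of 68 member regions in CD11b+ and in 97.3% in CD4+ cells, beside 91.65% and 89.56% of all listed regions there. The typical member region in that band had 13.64% in Dnmt3a+/+ and 6.175% in Dnmt3a R878H/+ for CD11b+ cells. For CD4+ cells these values were 13.72% and 7.146%. The mutant mean there had a median of 45.0% and 49.49% of the Dnmt3a+/+ mean, beside 48.94% and 51.95% for all listed regions. From 20% to 40%, the mutant mean was lower in 94.0% of member regions in CD11b+ and 97.14% in CD4+ cells, beside 94.35% and 91.13%. Below 10% it was lower in 73.33% and 76.04%, beside 53.87% and 68.2%. Median losses of member regions below 10% were 2.421 and 2.275 points, beside 0.2894 and 1.05.

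Levels were lowest near transcription starts, taken as those of every protein-coding transcript, of the members or their neighbours. Within 1 kb of a start, 72 member regions in CD11b+ cells had a median level of 13.53% in Dnmt3a+/+ and 6.148% in Dnmt3a R878H/+, and 97 in CD4+ cells had 12.53% and 7.184%. All listed regions this close to a start had 77.47% and 63.7% in CD11b+ and 82.62% and 69.94% in CD4+ cells. Beyond 1 kb and up to 5 kb from a start the members were still low, with a Dnmt3a+/+ median of 16.61% and 15.99%. Farther away they had 78.61% and 80.08%, and the mutant had 69.52% and 72.32%. CpGs were denser where levels were low. Member regions under 20% had a median ratio of observed to expected CpGs of 0.526 in CD11b+ and 0.569 in CD4+ cells, against 0.274 and 0.291 in those at 80% or more. In RefSeq promoter windows of 300 bases, which matched 21 of the 37 genes, the 31 member promoters held a median of 17 CpGs, against 7 over 32851 promoters. The genes were picked as Hox clusters and developmental transcription factors with large CpG islands. Dense CpGs near their starts are therefore part of the choice, and the low levels there are not a result independent of it.

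**Figure D3:**
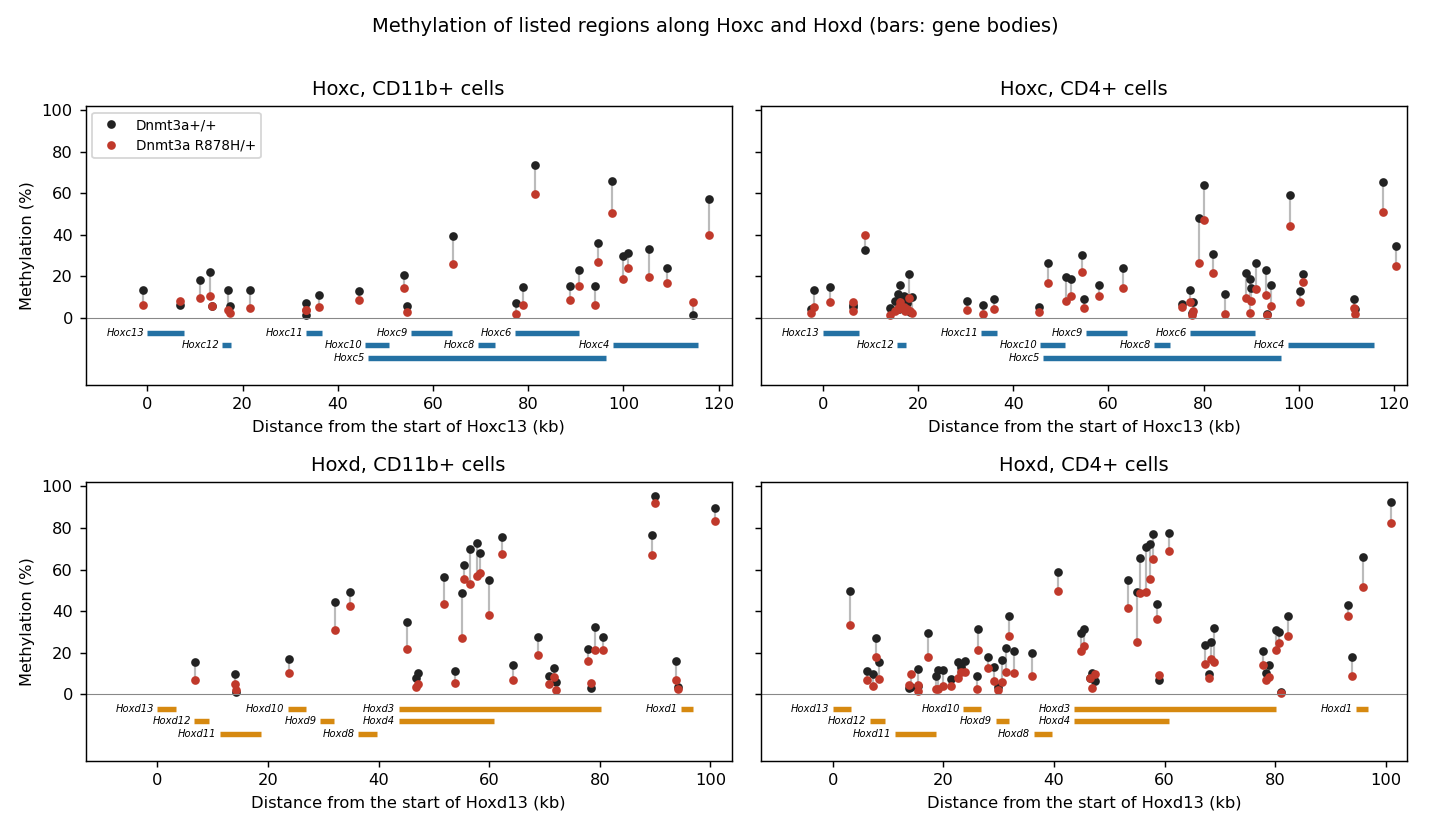
Methylation in percent of every listed Hoxc (top) and Hoxd (bottom) region in Dnmt3a+/+ (black) and Dnmt3a R878H/+ (red), by distance in kb from the start of the 13th gene of the cluster, with gene bodies as bars, in CD11b+ (left) and CD4+ cells (right). The highest levels over Hoxd3 and Hoxd4 exceed those over Hoxd10 to Hoxd12.

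In the Hoxc cluster the levels were mostly low, and no region reached 80% in Dnmt3a+/+ in either cell type. The 29 regions in CD11b+ cells had a median of 15.54% in Dnmt3a+/+ and 8.558% in Dnmt3a R878H/+, and the 50 in CD4+ cells had 13.08% and 5.55%. Hoxc11 and Hoxc12, which act in the posterior body, had Dnmt3a+/+ medians of 7.404% and 13.51% in CD11b+ and 8.232% and 10.0% in CD4+ cells. Hoxc4, at the anterior end, had 31.2% and 18.63%, but in CD4+ cells Hoxc9 and Hoxc10 had 19.25% and Hoxc8 had 7.375%, so the level did not follow the gene order there. The largest Hoxc loss in CD11b+ cells was downstream of Hoxc4, in the first sequence above, where the level was 57.425% in Dnmt3a+/+ and 40.025% in Dnmt3a R878H/+. The next 2 had 66.05% and 50.55%, over a start in the Hoxc4 and Hoxc5 windows, and 73.525% and 59.55%, in an intron in the Hoxc5 and Hoxc6 windows. In CD4+ cells it was the second sequence above, 372 bases from a Hoxc6 start, with 48.3% and 26.625%. After it came chr15:103000877-103001653, also close to that start, with 63.875% and 47.333%, and chr15:103010881-103010975, in an exon of Hoxc6, with 18.65% and 2.6%.

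In the Hoxd cluster the levels differed between genes. The 32 regions in CD11b+ cells had a median of 27.6% in Dnmt3a+/+ and 19.95% in Dnmt3a R878H/+, and the 57 in CD4+ cells had 19.75% and 10.81%. The Dnmt3a+/+ median was 9.575% and 11.41% at Hoxd12, 54.9% and 49.39% at Hoxd4, and 27.6% and 30.49% at Hoxd3. The Hoxd4 window lies inside that of Hoxd3, so every Hoxd4 region was also a Hoxd3 region. In CD11b+ cells Hoxd3 was thus below Hoxd8 and Hoxd9, with 46.72% each over the same 2 regions, so the level did not follow the gene order. The largest Hoxd loss in both cell types was over an exon of Hoxd4, its untranslated part included, at chr2:74723111-74723508, where the level was 48.875% in Dnmt3a+/+ and 27.062% in Dnmt3a R878H/+ CD11b+ cells. The CD4+ region there started at the same base and had 49.389% and 25.347%. The intron region whose middle is shown above had 70.0% and 52.865% in CD11b+ and 70.825% and 49.125% in CD4+ cells. The next region had 54.9% and 38.025% in CD11b+ cells, at chr2:74728169-74728530, and the next in CD4+ cells had 72.346% and 55.231%, at chr2:74725430-74725747.

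**Figure D4:**
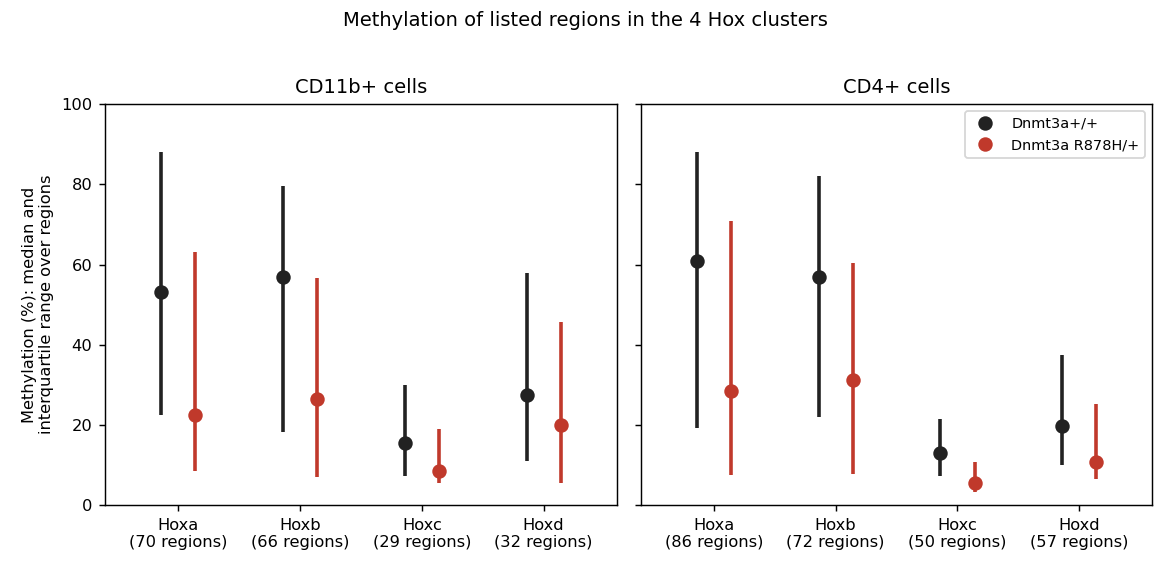
Median (point) and interquartile range (line) of methylation in percent over the listed regions of the Hoxa, Hoxb, Hoxc and Hoxd clusters in Dnmt3a+/+ (black) and Dnmt3a R878H/+ (red), in CD11b+ (left) and CD4+ cells (right). Hoxa and Hoxb start higher and are farther apart between genotypes than Hoxc and Hoxd.

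The paralogous Hoxa and Hoxb clusters had larger losses than Hoxc and Hoxd. The median loss was 17.13 and 16.25 points at Hoxa and 13.43 and 14.07 at Hoxb in CD11b+ and CD4+ cells, beside 7.484 and 5.935 at Hoxc and 6.692 and 8.025 at Hoxd. By the DMR criteria, 14 of 43 and 15 of 51 Hoxa regions with more than 10 CpG cytosines were called lower in the mutant. At Hoxb it was 8 of 37 and 8 of 42, beside 1.38% and 1.49% of all such regions. No Hoxc region was called, of 15 and 24, and no Hoxd region, of 14 and 26. At the share over all regions so few would seldom hold a call, so its absence says little about a difference from all regions. Beside the Hoxa and Hoxb counts, the Hoxc and Hoxd counts were lower. Hoxa and Hoxb also started higher, with Dnmt3a+/+ medians of 53.14% and 60.92% and of 56.79% and 56.87%. The difference between the clusters was not tested, since no value per mouse was used here.

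Among the 19 genes outside the Hox clusters, the largest losses lay in Pax7, which specifies muscle stem cells. The intron region of 101 bases shown above had 58.0% in Dnmt3a+/+ and 18.2% in Dnmt3a R878H/+ CD11b+ cells, a loss of 39.8 points. The CD4+ region over it, chr4:139758697-139759248, had 60.5% and 31.481%. The next 2 in CD11b+ cells, also in Pax7 introns, had 72.825% and 43.825% at chr4:139757110-139757523, and 68.925% and 40.9% at chr4:139817498-139817698. The region of 101 bases and these 2 held 10 CpG cytosines each, the fewest of any listed region and too few for the DMR criteria. The largest CD4+ loss, in the fifth sequence above, was from 54.646% to 24.125%. At another Pax7 intron region, starting at chr4:139767245 in both cell types, the level went from 43.275% to 20.725% in CD11b+ cells and from 42.0% to 18.903% in CD4+ cells. Despite these, the Pax7 median loss was 9.637 and 9.682 points over 40 and 35 regions, so the large losses were local.

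Other large losses were at regulators of the heart, kidney, brain and gut. A region beyond the 3′ end of Gata4, which acts in the heart, at chr14:63194119-63194629, had 57.55% and 34.65% in CD11b+ cells, and the CD4+ region that overlaps it had 68.737% and 41.312%. Its nearest start is that of Neil2, a DNA repair gene, at 263 bases, so it lies in the Gata4 window but by the promoter of its neighbour. At Wt1, which acts in the kidney, a region 763 bases from an internal start, at chr2:105129445-105130037, had 59.225% and 34.175% in CD4+ cells. In the Otx1 window, chr11:22006474-22006936, over an exon of the neighbouring Ehbp1, had 71.7% and 44.6% in CD11b+ cells. At Foxa2, an exon region at chr2:148043595-148043904 had 50.479% and 27.417% in CD4+ cells. All of these had a q-value of 1.

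The mutant mean was higher by more than 5 points in 6 member regions (1.74%) in CD11b+ and in 7 (1.45%) in CD4+ cells, beside 1.55% and 0.702% of all listed regions, a difference that was not tested. The largest gain in both cell types was at 1 place in an intron of Tbx5, a regulator of the heart and forelimb. At the sequence shown above the level was 27.45% in Dnmt3a+/+ and 41.6% in Dnmt3a R878H/+ CD11b+ cells. A second CD11b+ region beside it, chr5:119866972-119867023, had 25.175% and 31.65%. The CD4+ region, chr5:119866909-119867236, overlaps both and had 20.279% and 31.615% over 26 CpG cytosines. The other gains above 5 points were smaller. In CD11b+ cells, Pax3 had 87.325% and 94.25%, Pax7 had 85.05% and 90.45%, Otx1 had 0.425% and 7.1%, and Hoxc4 had 1.275% and 7.925%. In CD4+ cells, Hoxc13 had 32.675% and 39.8%, Wt1 had 84.225% and 90.325%, Gata6 had 2.975% and 8.675%, and Sox9 had 18.025% and 23.925% at 1 region and 83.575% and 90.225% at another. The CD4+ gain near a start in the Hoxd11 and Hoxd12 windows, from 3.35% to 9.575%, had a CD11b+ counterpart that went the other way, from 9.575% to 5.0%.

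**Figure D5:**
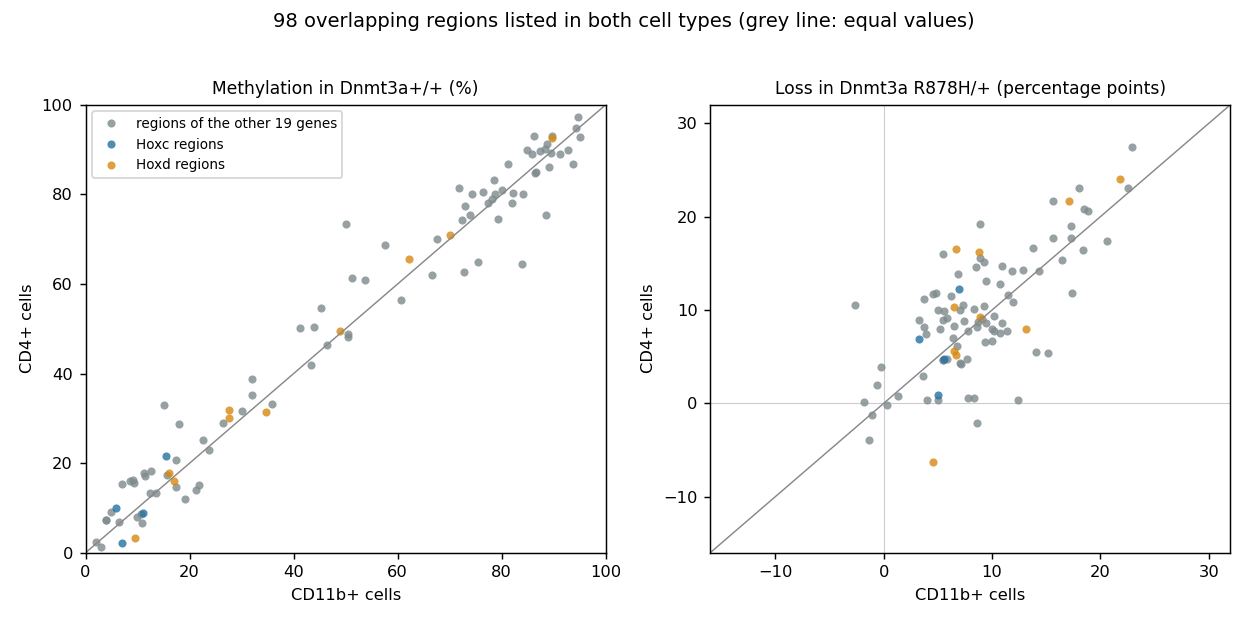
Dnmt3a+/+ methylation in percent (left) and loss in percentage points (right) in CD11b+ cells (horizontal) and CD4+ cells (vertical) at 98 member regions listed in both, coloured by gene group. In 89 of the 98 the mutant mean was lower in both cell types. It was lower in 93.44% of all listed regions in CD11b+ and in 95.47% in CD4+ cells.

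The cell types had similar levels where both listed the same stretch. There were 98 pairs in which each region covered at least 50% of the other. Their Dnmt3a+/+ medians were 49.49% in CD11b+ and 50.3% in CD4+ cells, and 66 pairs differed by at most 5 points. The mutant mean was lower in both cell types in 89 pairs and higher in both in 2. Since it was lower in 93.44% of all listed regions in CD11b+ and 95.47% in CD4+ cells, most pairs would be lower in both anyway. Pairs over all listed regions were not counted. Over the 98 pairs the losses had Pearson's r of 0.714 and Spearman's rho of 0.61, a description over regions that share genes and starting levels. The widest Dnmt3a+/+ difference, and the only one above 20 points, was at Gata6, with 50.104% in CD11b+ and 73.375% in CD4+ cells. At a Pax7 region it was 83.825% in CD11b+ and 64.425% in CD4+ cells, the widest difference in the other direction. At Six2, a kidney progenitor regulator, the level was 15.05% in CD11b+ and 32.975% in CD4+ cells.

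Further lists of genes that work with or upstream of these regulators were read beside them. Of 10 Hox cofactor genes, 4 had a region called lower in CD11b+ and 4 in CD4+ cells. That was 12 of 156 (7.69%) and 9 of 218 (4.13%) of their regions with more than 10 CpG cytosines, beside the 1.38% and 1.49% of all such regions. Meis1, which binds DNA beside Hox proteins, had 53.28% in Dnmt3a+/+ and 16.04% in Dnmt3a R878H/+ for CD11b+ cells, and 75.167% and 36.183% in CD4+ cells over overlapping regions. Of 24 Polycomb and Trithorax regulators, 3 and 4 had such a region, or 2.27% and 3.59% of regions, led by Kdm6b, which removes the Polycomb mark, with 75.648% and 25.759% in CD11b+ cells. Of 64 other developmental regulators, 1 had one in each cell type, Hand1 in CD11b+ cells and Nkx2-3 in CD4+ cells, or 0.442% and 0.699% of regions. None of these shares was tested. No region of the 3 lists was called higher. The 64 genes had Dnmt3a+/+ medians of 17.61% and 18.7%, below the 36.83% and 27.15% of the members, and median losses of 7.106 and 7.362 points.

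The labelled cell types were compared with marker genes. Within 1 kb of the starts of a myeloid list the Dnmt3a+/+ median was 64.09% in CD11b+ and 88.19% in CD4+ cells, and for a CD4 T cell list it was 78.45% and 59.48%, so each of these lists had the lower median in its own cells, among the regions listed there. For a B cell list it was 57.65% and 67.11%. Of the CD8 T cell list, CD11b+ cells had 0 regions listed there and CD4+ cells had 1. In Dnmt3a R878H/+ the medians were 39.47% and 75.12% for the myeloid list, 68.52% and 42.99% for the CD4 T cell list, and 55.6% and 41.68% for the B cell list. In CD4+ cells no marker gene had a higher median in the mutant. In CD11b+ cells 1 of 10 myeloid, 4 of 11 CD4 T cell and 1 of 6 B cell genes with a listed region did. The myeloid gene was Cd14, with 0.7812% in Dnmt3a+/+ and 38.73% in Dnmt3a R878H/+, the T cell genes were Bcl11b, with 3.325% and 18.88%, Cd247, Tcf7 and Cd3d, and the B cell gene was Ms4a1, with 53.88% and 60.45%. These genes were singled out after their values were seen. Whether the makeup of the CD11b+ groups has a part in the differences above was not tested.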

How the data were processed

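DNA methylation was measured by whole-genome bisulfite sequencing of splenic CD11b+ and CD4+ cells. The authors mapped reads to mm10 with BISCUIT and passed methylation ratios at CpGs to metilene, which marks out regions and compares 2 groups. Versions, metilene settings and the coverage minimum are not given in the sources used here. The 2 deposited tables hold, per region, mean methylation in percent for each group, a q-value and 2 p-values from the caller, and the number of CpG cytosines. The deposited p-values were not used beyond checking that the q-value is 1 of them times a constant, at most 1. Cytosines are counted per strand: the first 5000 regions held 1.42 (CD11b+) and 1.53 (CD4+) per CpG dinucleotide, so "more than 10 CpGs" was applied to cytosines. In regions of 10 cytosines, 100% of the group means were multiples of 1/40 of a percent, within 0.05 of a step, as 4 whole-percent values per cytosine give. For the mutant CD11b+ group, with 6 entries, 50.0% were multiples of 1/60. The study states a coverage for its libraries, but the reads behind each region are unknown, and no per-mouse value was used.

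Regions were joined to gene bodies extended by 5 kb (GENCODE M21, Python 3.11.15, pandas 2.3.3, pysam 0.24.0). Calling and overlap were tested on simulated data. No test was run, because each group has 1 value per region. The genes and lists were chosen with earlier results of these data known. Named were member regions past the DMR criteria, the 3 largest differences per cell type in Hoxc, Hoxd and the other genes, gains above 5 points, and from the 3 further lists some of the largest called differences, the others being not reported here. Since no member region passed the criteria, the sequences printed, and other regions named as second examples, were chosen after their values were seen. Alternatives changed the thresholds, the gene window and the weighting.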

Additional observations from a re-analysis of the deposited data

How the results depend on the processing

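No paired analysis was possible because the tables hold 1 mean per group and no values per mouse, and leaving out mice was not possible for the same reason. Of 44 alternatives, 6 moved the result. Of the other 38, 24 keep a q-value threshold on the same or fewer regions, and since the q-value is 1 at every member region they could only give 0 and say nothing about stability. Without the q-value threshold, the count of member regions called lower rose from 0 to 2 in CD11b+ and 13 in CD4+ cells, and the count of genes to 3 and 8. A window of 10 kb on each side, which adds regions, also gave 0. The median difference in CD4+ cells, R878H/+ minus +/+, was -7.054 points, and it was -8.851 over the 20 regions with more than 20 CpGs and -7.832 as the median of the medians per gene; the cause was not tested. In CD11b+ cells, where it was -7.4, no alternative moved it. Spread between mice, read depth and the identity of the group columns could not be checked.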
